A study of Mus musculus with 6 samples.

Results

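The glucocorticoid receptor gene Nr3c1 and 9 of its well-known target genes (Fkbp5, Tsc22d3, Sgk1, Ddit4, Per1, Klf9, Zbtb16, Fbxo32 and Glul) were followed in Kupffer cell RNA. Kupffer cells are macrophages that live in the sinusoids of the liver. They are 10 of the 54532 genes in the deposited count table and were found there by gene name, with 1 row each. They were chosen from results of these same libraries, that is with their difference between Trem2_KO and WT known, so that difference is described here and not tested. Trem2_KO stands for Trem2-deficient male mice and WT for their wild-type littermates. Mice of both genotypes were 8 weeks old when a high fat diet began, and their Kupffer cells were sorted after 8 weeks of it. Each group has 3 libraries, so every animal carried the diet and no library shows Kupffer cells without it. Trem2 encodes a lipid-sensing surface receptor of macrophages. The labels do not say which part of Trem2 is deleted, or at what time of day the livers were taken. They also do not tie each library to its own animal. The p-values below therefore rest on the variation among these 6 libraries, part or all of which may be technical.

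Glucocorticoids are steroid hormones of the adrenal cortex that cross the cell membrane and bind a receptor held in the cytoplasm by HSP90 and its co-chaperones. The bound receptor moves to the nucleus, pairs on palindromic DNA sites and switches on genes that restrain inflammation, growth and protein synthesis. At inflammatory genes it acts mainly as a repressor, and macrophages are among the cells in which both actions are best known. Several of the targets also answer to other regulators: Per1 to CREB and the circadian clock, Ddit4 to hypoxia and energy stress, Fbxo32 and Klf9 to FOXO factors or other nuclear receptors, and Glul to Wnt signals in hepatocytes around the central vein.

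The libraries held 15799351 to 17135603 counts. Trem2 itself (GRCm38 chromosome 17, from 48346401 to 48354147) stood at 16.6, 17.4 and 14.5 CPM (counts scaled to library size) in Trem2_KO and at 84.8, 90.1 and 84.3 CPM in WT, a log2 change of -2.42 (SE 0.064, edgeR adjusted p = 1.68e-35). The Kupffer cell marker Clec4f, chosen after its value was seen, stood at 11197 ± 159 CPM in Trem2_KO and 12329 ± 334 CPM in WT (SD, n = 3 each). Of 14 Kupffer cell markers, 11 fell and 0 rose (0 also by DESeq2 and at an unadjusted edgeR p under 0.05), with summed levels of 46667 to 47866 CPM in Trem2_KO and 53291 to 55063 CPM in WT. Of 15 sinusoidal endothelial markers, 13 rose and 1, Dnase1l3, fell by 0.21 on the log2 scale, chosen after its value was seen (summed levels 959 to 968 CPM in Trem2_KO and 858 to 865 CPM in WT). The rises numbered 11 with DESeq2 and 10 with no filter and with limma on log2 FPKM. They also numbered 10 without Trem2_KO replicate 1, WT replicate 1 or WT replicate 3. Of 14 hepatocyte markers, 9 fell and 0 rose (0 also by DESeq2 and at an unadjusted edgeR p under 0.05), with summed levels of 1424 to 1464 CPM in Trem2_KO and 1725 to 1795 CPM in WT. Of 9 monocyte markers 4 rose and 1 fell, with the smallest p for Ccr2 and Cx3cr1 (log2 changes 1.45 and 1.46). The other 2 that rose were Chil3 (1.81) and Fn1 (0.20) and the one that fell was Plac8 (-0.22), all 3 chosen after their values were seen. Chil3 averaged 0.770 CPM in Trem2_KO and 0.213 CPM in WT, and passed the filter on low counts through the Trem2_KO libraries alone. Of the monocyte markers, 2 rose without Trem2_KO replicate 2, WT replicate 1 or WT replicate 2. Of 7 B cell markers 3 fell and 0 rose (0 also by DESeq2 and at an unadjusted edgeR p under 0.05), led by Ighm (-0.82). Of 5 neutrophil markers Lcn2 rose (1.76) and Csf3r fell (-0.10), with Ly6g at 0 in every library. The Csf3r call ended without Trem2_KO replicate 1, Trem2_KO replicate 2 or WT replicate 3 (edgeR adjusted p = 0.0806, 0.16 and 0.166). Csf3r averaged 182 CPM in Trem2_KO and 196 CPM in WT, most of the list's summed levels (185 to 194 and 194 to 210 CPM). Of 10 stellate cell markers only Ecm1 was called, and it rose (0.32), beside a list median of -0.40. Ecm1 averaged 200 CPM in Trem2_KO and 160 CPM in WT, most of the list's summed levels (222 to 224 and 182 to 190 CPM). Colec11 (-0.59, edgeR adjusted p = 0.0588) passed once Trem2_KO replicate 3 or once WT replicate 1 was left out (edgeR adjusted p = 0.0267 and 0.0372). In bulk RNA, fewer cells of a type and less RNA per cell cannot be told apart. The part of these shifts in the values below was not tested. Where a marker level is given beside a gene, it is a description only.

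The receptor transcript overlapped between the genotypes, while all 9 targets were higher in Trem2_KO. In the 9 targets the lowest Trem2_KO library lay above the highest WT library, and their log2 changes ran from 0.32 for Glul to 2.61 for Ddit4 with a median of 1.19. The edgeR quasi-likelihood test across 13776 genes, with a Benjamini-Hochberg adjusted p under 0.05 as the threshold, called 9 of the 10 genes higher and 0 lower. It called 15.3% of all tested genes higher, 15.1% lower and 30.4% in either direction, and 20.9% of tested genes had non-overlapping libraries with Trem2_KO above WT. Of all calls 50.3% were higher in Trem2_KO, or 61.3% with total counts as the scaling. Because the genes were chosen on this difference, nothing is read from their count. All 10 passed the filter on low counts, but Zbtb16 passed it through the Trem2_KO libraries alone.

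**Figure D1:**
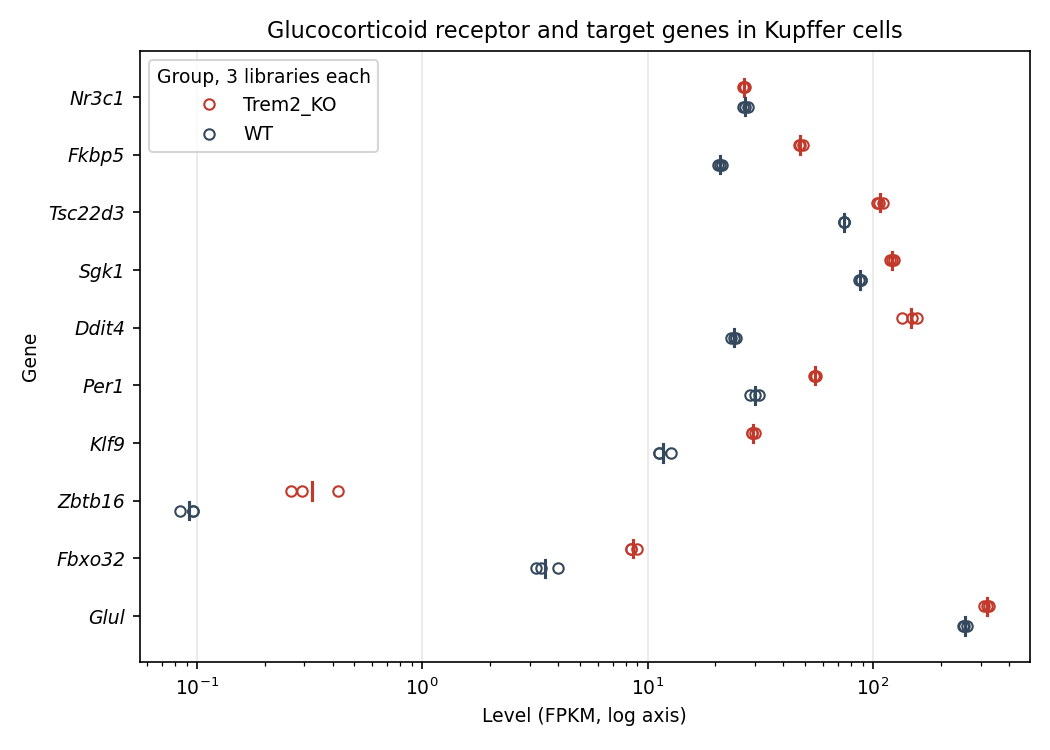
Level of each gene in every library, as deposited FPKM (counts scaled by gene length and library) on a log axis. Circles are the 3 Trem2_KO and 3 WT libraries, vertical ticks their means. The Nr3c1 groups overlap near 27 FPKM, and every target lies further right in Trem2_KO.

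Nr3c1 (ENSMUSG00000024431, chromosome 18, 39410545 to 39491301, minus strand, GRCm38) encodes the receptor. It was read at 201, 199.5 and 198 CPM in Trem2_KO and at 202, 197 and 208 CPM in WT. All 3 Trem2_KO libraries lay within the WT range. Its log2 change was -0.019 (SE 0.034, 95% interval -0.088 to 0.049, n = 3 each), and with total counts in place of TMM scaling the value was 0.011. The transcript says nothing of receptor protein or of hormone in the animals, neither of which was measured.

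Fkbp5 (ENSMUSG00000024222, chromosome 17, 28399094 to 28517527, minus strand, GRCm38) encodes FKBP51, a co-chaperone that lowers the receptor's affinity for hormone and closes a negative feedback loop. It stood at 450, 464 and 449 CPM in Trem2_KO and at 194, 203 and 200.3 CPM in WT. Every Trem2_KO library was at least 2.21 times the highest WT library, and the log2 change was 1.19 (SE 0.031). Fkbp5 lies 19.8 Mb from Trem2 on the same chromosome, where DNA of the targeted strain can remain linked to the deleted gene. Of 224 tested genes 15 to 25 Mb from Trem2, 29.9% were called in either direction, against 30.1% of the 13078 tested genes on other chromosomes and 45.8% of 144 within 10 Mb of Trem2. The 15 to 25 Mb range was chosen after the data were seen, and whether linked DNA has a part in the Fkbp5 value was not tested. Its RefSeq promoter (build GRCm38.p6) holds no receptor hexamer (TGTTCT, one arm of the receptor's palindrome) in the window from 250 bases before to 50 after the start, but has an E-box, the site of clock and MYC family factors, in capitals in the stretch at chr17:28486300-28486399 (minus strand), positions -250 to -151 from the start.

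Fkbp5: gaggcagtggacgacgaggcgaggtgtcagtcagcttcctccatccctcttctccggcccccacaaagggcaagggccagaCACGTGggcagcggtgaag

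Tsc22d3 and Sgk1 are classical direct targets, and both were higher by less than Fkbp5. Tsc22d3 (ENSMUSG00000031431, chromosome X, 140539528 to 140600659, minus strand, GRCm38) encodes GILZ, a leucine zipper protein that binds NF-kB and AP-1 and carries part of the hormone's anti-inflammatory action. It was read at 456, 466 and 483 CPM in Trem2_KO and at 323, 325 and 325 CPM in WT. The WT libraries agree within a few CPM and the groups are far apart, with a log2 change of 0.53 (SE 0.029). Sgk1 (ENSMUSG00000019970, chromosome 10, 21882184 to 21999903, plus strand, GRCm38), a kinase that phosphorylates FOXO3 and the ubiquitin ligase NEDD4L, was read at 590, 599.97 and 613 CPM in Trem2_KO and at 437, 425 and 437 CPM in WT. The log2 change was 0.47 (SE 0.028), and the lowest Trem2_KO library was 1.35 times the highest WT library.

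The promoters of these 2 genes are shown because they hold the receptor hexamer on either strand. They do so as 2 of the 7 target genes matched in the RefSeq table (build GRCm38.p6), and the hexamer occurs in 21.3% of all genes there. Fbxo32 and Zbtb16 were not matched. RefSeq gives Sgk1 6 start sites and Tsc22d3 3, and gene-level counts do not show which start was used. The stretches run from -250 to -151 before the start, at chr10:21993640-21993739 (plus strand) for Sgk1 and at chrX:140600673-140600772 (minus strand) for Tsc22d3, with hexamers on either strand in capitals.

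Sgk1: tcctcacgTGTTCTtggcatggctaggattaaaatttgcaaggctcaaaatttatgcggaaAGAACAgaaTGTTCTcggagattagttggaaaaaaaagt

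Tsc22d3: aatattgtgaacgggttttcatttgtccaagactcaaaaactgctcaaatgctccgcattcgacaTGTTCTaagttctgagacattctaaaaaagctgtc

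In Sgk1, 2 of the hexamers face each other with 3 bases between them, the full palindrome that the receptor pair binds, with matches starting at -189 and -180. This full pair was looked for after the sequence was seen. It occurs in 3 of the 32851 promoters of the table (0.00913%), while the single hexamer occurs in 19% of promoters and its inner core ACANNNTGT in 6.85%. The third Sgk1 hexamer, at -242, overlaps an E-box (CACGTG) by 2 bases. A match is a description of letters and not a binding site, and receptor sites of many targets lie far from the start, outside these windows.

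Ddit4 (ENSMUSG00000020108, chromosome 10, 59949669 to 59951834, minus strand, GRCm38) showed the widest difference of the 10 genes. It encodes REDD1, an inhibitor of the growth kinase mTORC1 that is induced by glucocorticoids, hypoxia and energy stress. Its counts were 276, 264 and 238 CPM in Trem2_KO and 42.5, 41.2 and 43.7 CPM in WT. The log2 change was 2.61 (SE 0.048), a fold of 6.10, which ranked 26th among the rises of all 13776 tested genes. Trem2_KO replicate 3 was the lowest of its group and still 5.45 times the highest WT library. In levels per gene length Ddit4 stood second of the 10 genes in Trem2_KO, at 147 ± 10.9 FPKM, and sixth in WT, at 24.1 ± 0.692 FPKM (SD, n = 3 each).

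Per1, Klf9 and Zbtb16 encode repressors of transcription. Per1 (ENSMUSG00000020893, chromosome 11, 69095217 to 69109960, plus strand, GRCm38), a repressor in the core circadian loop that glucocorticoids and cAMP induce acutely, was read at 313, 317 and 308 CPM in Trem2_KO and at 161, 176 and 169.7 CPM in WT. The Trem2_KO libraries lay closer together than the WT libraries, and the log2 change was 0.89 (SE 0.034). Klf9 (ENSMUSG00000033863, chromosome 19, 23141226 to 23166911, plus strand, GRCm38) encodes a zinc finger repressor induced by glucocorticoid and thyroid hormone. It was read at 95.1, 95.8 and 98.1 CPM in Trem2_KO and at 36.6, 36.8 and 41.7 CPM in WT. WT replicate 3 was the highest of its group, and the log2 change was 1.33 (SE 0.053), or 1.39 without that library.

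The Per1 and Klf9 promoters (RefSeq, GRCm38.p6) are shown for the other regulators of these genes. The Per1 stretch, at chr11:69098699-69098798 (plus strand, -250 to -151 from the first of 2 start sites), has its E-box in capitals. It also holds the short cAMP response motif TGACG at -246, left in lower case. The Klf9 stretch, at chr19:23141106-23141205 (plus strand, -120 to -21), has a FOXO motif (GTAAACA) at -100 and the short cAMP response motif TGACG at -46 in capitals.

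Per1: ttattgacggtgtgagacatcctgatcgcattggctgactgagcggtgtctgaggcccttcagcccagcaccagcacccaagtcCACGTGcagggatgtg

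Klf9: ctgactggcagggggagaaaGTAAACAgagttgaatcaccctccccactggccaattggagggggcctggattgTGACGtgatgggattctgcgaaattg

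At least 1 promoter holds an E-box in 8.09% of the 27025 genes in the table, the FOXO motif in 4.05% and TGACG in 23.0%, which are 7.15%, 3.65% and 20.8% of promoters. Of the 7 target genes with a promoter there, 3 hold an E-box, 1 the FOXO motif and 4 hold TGACG, while 0 hold the full cAMP element TGACGTCA, which 2.03% of genes hold. The short hypoxia motif ACGTG, part of every E-box, occurs in 5 of the 7 and in 21.8% of genes. TATAAA occurs in 1 of the 7, Sgk1, and in 15.7% of genes. Sgk1 has 6 of the 15 promoters, and so more sequence in which a match can fall. All motifs were searched on both strands.

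**Figure D2:**
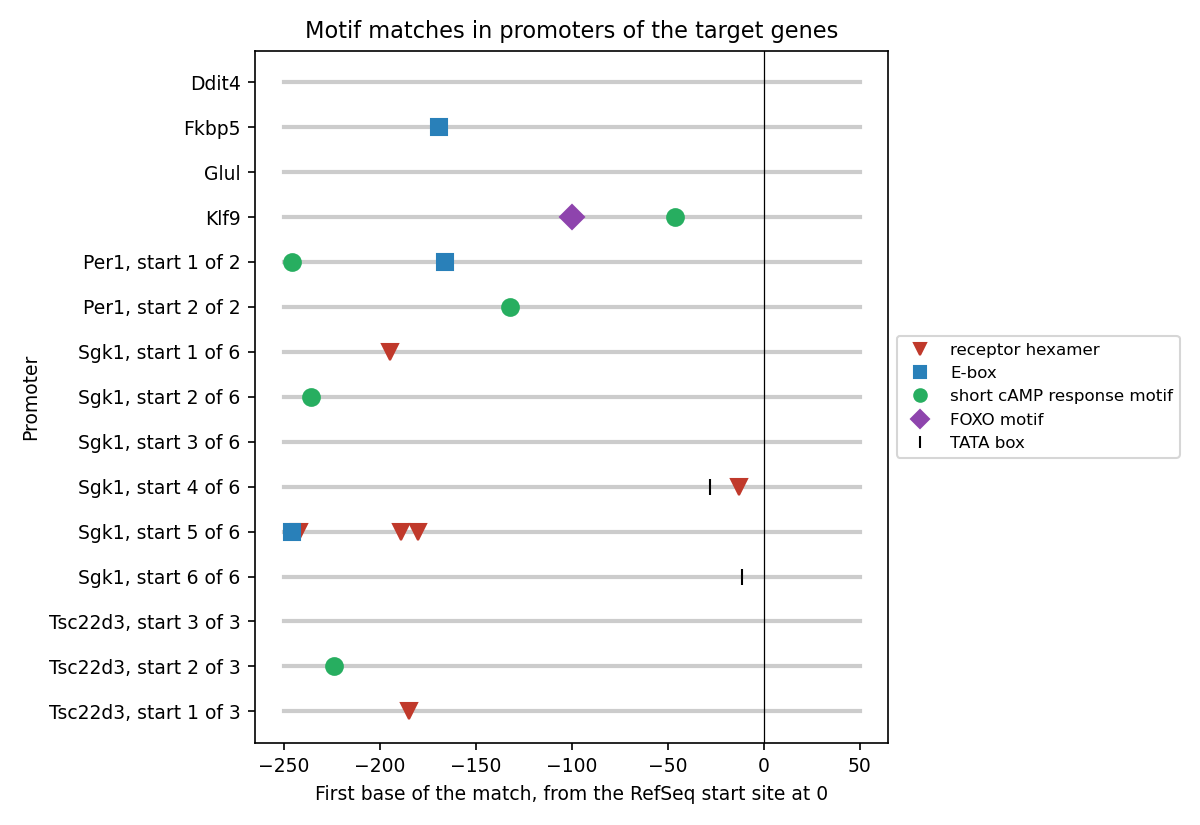
Motif matches in the 15 RefSeq promoters of 7 target genes, by the distance in bases of the match's first base from the start site. Triangles are receptor hexamers, squares E-boxes, circles short cAMP response motifs, the diamond a FOXO motif and vertical ticks TATA boxes, on either strand. The Sgk1 promoter with start 5 of 6 holds the pair at -189 and -180, and hexamers appear in 2 of the 7 genes.

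Zbtb16 (ENSMUSG00000066687, chromosome 9, 48654297 to 48836222, minus strand, GRCm38) encodes PLZF, a repressor strongly induced by glucocorticoids in several tissues and a marker of natural killer T cells and other innate-like lymphocytes. It was read only 27, 23 and 38 times in Trem2_KO and 7, 8 and 8 times in WT, that is 1.56, 1.40 and 2.24 CPM and 0.447, 0.511 and 0.511 CPM. The groups did not overlap, and the log2 change was 1.81 (SE 0.38), by far the widest error of the 10 genes, and 1.58 without Trem2_KO replicate 3. The 13 T, NK and NKT cell markers summed to 3.88 to 5.65 CPM in Trem2_KO and 3.96 to 4.67 CPM in WT. None of these 13 was at 0 in every library, and 11 were too low to test. Of the 2 tested, the cytokine receptor Il7r rose (log2 change 1.94, SE 0.50, edgeR adjusted p = 0.00201) and Il2rb stood at -0.34 (SE 0.33, adjusted p = 0.466). Il7r averaged 1.00 ± 0.138 CPM in Trem2_KO and 0.256 ± 0.169 CPM in WT (SD, n = 3 each). Like Zbtb16, it passed the filter on low counts through the Trem2_KO libraries alone, so nothing is read from its call. With the stricter filter 0 of the 13 were tested. Whether Zbtb16 reads came from Kupffer cells or from such lymphocytes was not tested.

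Fbxo32 (ENSMUSG00000022358, chromosome 15, 58175879 to 58214932, minus strand, GRCm38) encodes atrogin-1, a ubiquitin ligase subunit known from muscle atrophy under glucocorticoids and FOXO factors. It was read at 62.8, 59.4 and 58.9 CPM in Trem2_KO and at 23.4, 22.4 and 27.9 CPM in WT. WT replicate 3 was again the highest of its group, yet the lowest Trem2_KO library was 2.11 times it. The log2 change was 1.30 (SE 0.066).

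Glul (ENSMUSG00000026473, chromosome 1, 153899944 to 153909723, plus strand, GRCm38) encodes glutamine synthetase, which joins glutamate and ammonia and is induced by glucocorticoids in muscle, lung and other tissues. It was read at 1098, 1074 and 1033 CPM in Trem2_KO and at 872, 849.8 and 841 CPM in WT. The groups did not overlap, and the log2 change of 0.32 (SE 0.026) was the smallest of the 9 targets. Per gene length, however, Glul stood 63.6 FPKM higher in Trem2_KO, more than any target but Ddit4, which stood 123 FPKM higher. Glul is also a marker of hepatocytes around the central vein. The 9 other markers of those hepatocytes summed to 238 to 247 CPM in Trem2_KO and 271 to 281 CPM in WT. Of 6 that could be tested 3 fell, led by Cyp1a2, a cytochrome P450 (log2 change -2.17, SE 0.20, edgeR adjusted p = 8.23e-13), and the glutamate transporter Slc1a2 (-0.82, SE 0.089, adjusted p = 9.42e-11). The third that fell was Oat (-0.21, chosen after its value was seen). Rhbg, another of the 9, was at 0 in every library.

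**Figure D3:**
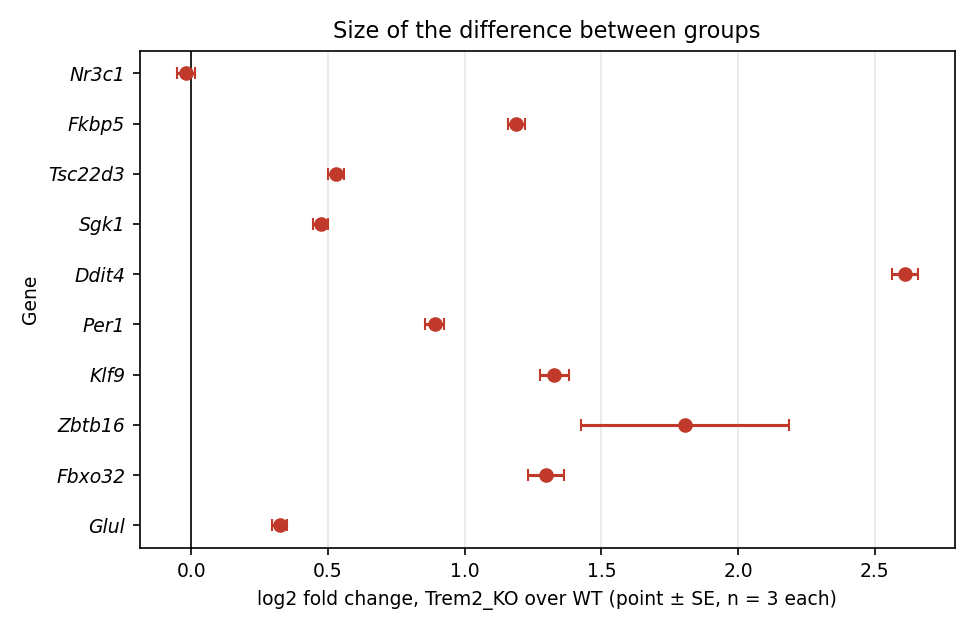
Log2 fold change of Trem2_KO over WT for each gene, with its standard error (n = 3 libraries each). Nr3c1 lies on 0 at -0.019, Ddit4 is highest at 2.61, and Zbtb16 has the widest error.

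Per gene length the 10 genes spanned a wide range of levels, from 0.326 FPKM for Zbtb16 to 319 FPKM for Glul in Trem2_KO and from 0.0923 to 256 FPKM for the same genes in WT. In Trem2_KO the order from high to low was Glul, Ddit4, Sgk1, Tsc22d3, Per1, Fkbp5, Klf9, Nr3c1, Fbxo32 and Zbtb16. In WT it was Glul, Sgk1, Tsc22d3, Per1, Nr3c1, Ddit4, Fkbp5, Klf9, Fbxo32 and Zbtb16. In both groups no gene's libraries overlapped those of its neighbour in the order. Nr3c1 stayed at 26.7 ± 0.233 FPKM in Trem2_KO and 27.1 ± 0.721 FPKM in WT (SD, n = 3 each), and Ddit4, Fkbp5 and Klf9 lay above it in Trem2_KO but below it in WT. In the WT order from high to low, the log2 changes of the targets were 0.32 for Glul, 0.47 for Sgk1, 0.53 for Tsc22d3, 0.89 for Per1, 2.61 for Ddit4, 1.19 for Fkbp5, 1.33 for Klf9, 1.30 for Fbxo32 and 1.81 for Zbtb16. The targets with higher WT levels thus mostly had the smaller log2 changes. Ddit4 stood off that order, Fbxo32 lay slightly below Klf9, and the WT level enters both quantities.

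Within a group the 10 genes did not move as a block. In Trem2_KO replicate 3, 6 of the 10 were at their group's lowest value and the other 4, Tsc22d3, Sgk1, Klf9 and Zbtb16, at its highest. In WT replicate 3, Nr3c1, Ddit4, Klf9 and Fbxo32 were at their group's highest. The median deviation of the 10 genes from their group means was between -0.015 and -0.0013 on the log2 scale in the Trem2_KO libraries and between -0.022 and 0.027 in the WT libraries. The pooled SD between replicates was largest for Zbtb16, at 0.26 on the log2 scale, and smallest for Sgk1, at 0.026.

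**Figure D4:**
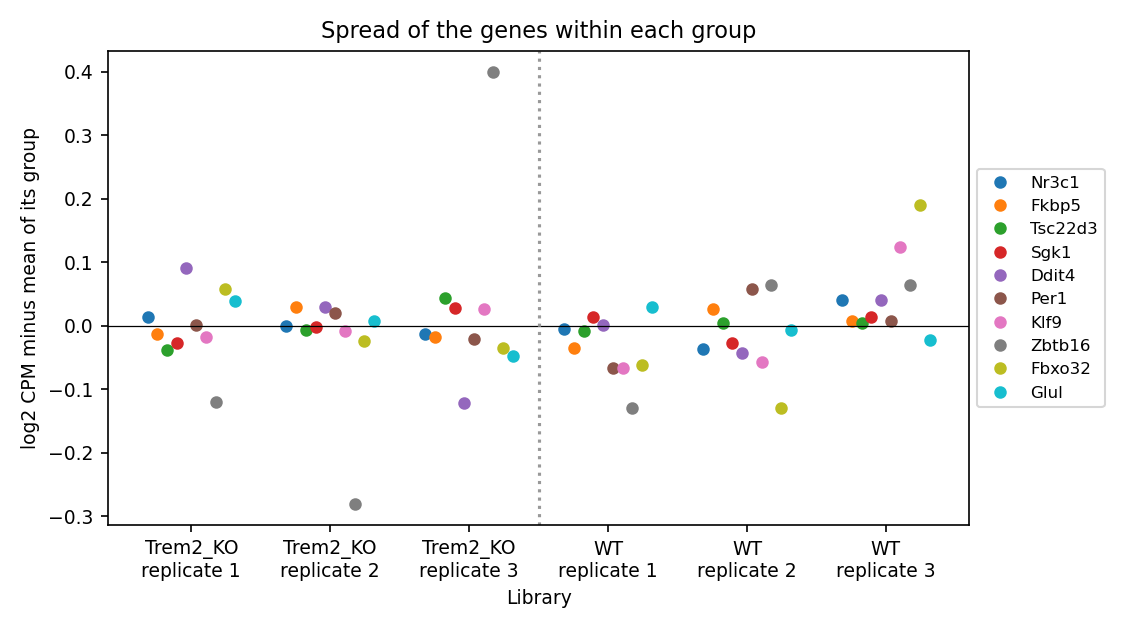
Deviation of each gene from the mean of its own group, as log2 CPM, for the 3 Trem2_KO and 3 WT libraries. Zbtb16 in Trem2_KO spreads from -0.28 to 0.40, and Fbxo32 in WT replicate 3 stands at 0.19.

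Other genes of the pathway were read through lists, with the 10 genes above left out. Each list is described by its called genes and its median beside the median of all tested genes, -0.0051. Some genes stand in 2 lists, such as Fkbp4, Cited2, Irs2, Sesn1 and Got1.

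The chaperones that hold and mature the receptor fell almost without exception. Of 15 tested, 14 fell and 0 rose, with a list median of -0.35 on the log2 scale, and summed levels of 5543 to 5708 CPM in Trem2_KO against 7242 to 7476 CPM in WT. Under 6 of the 14 alternatives 14 fell and 1 rose, Ppp5c: DESeq2 size factors, total counts, the stricter filter, the replicate block, and the fits without Trem2_KO replicate 3 or WT replicate 2. DESeq2 itself also gave 14 and 0, and at an unadjusted edgeR p under 0.05 the rises numbered 1. Hsp90aa1, the inducible HSP90, fell by 0.75 (SE 0.029, edgeR adjusted p = 3.1e-28). The HSP40 proteins Dnaja1 and Dnajb1 fell by 0.83 and 0.85, and Stip1, which passes clients from HSP70 to HSP90, fell by 0.59 on the log2 scale. These are also heat shock genes. Fkbp4, which encodes FKBP52, the partner that competes with FKBP51 for the receptor, fell by 0.53 (SE 0.041, adjusted p = 5.56e-16). It averaged 106 ± 2.35 CPM in Trem2_KO and 154 ± 8.09 CPM in WT (SD, n = 3 each). Ppp5c, the only listed chaperone not called, stood at 0.097 (SE 0.039, adjusted p = 0.052, chosen after its value was seen).

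Of 6 tested genes for hormone supply and for the second corticosteroid receptor, edgeR called 0 in either direction and DESeq2 called 0, while 1 fell at an unadjusted edgeR p under 0.05. That gene was Hsd11b1, whose enzyme regenerates active hormone inside cells, at 6.01 ± 0.494 CPM in Trem2_KO and 7.52 ± 0.359 CPM in WT (SD, n = 3 each, log2 change -0.32, SE 0.14, edgeR adjusted p = 0.0768). The hormone-binding globulin gene Serpina6 stood at 0.44 (SE 0.22, adjusted p = 0.128). The list median was -0.057, and Hsd11b2 and Abcb1b were too low to test. Of 15 coregulators of nuclear receptors, 8 rose and 1 fell, with a median of 0.13. The corepressors Nrip1 and Ncor1 rose by 0.41 and 0.30, the coactivator Ncoa1 by 0.31 and the acetyltransferase Ep300 by 0.23 on the log2 scale (edgeR adjusted p from 2.54e-12 for Nrip1 to 6.79e-06 for Ep300). The deacetylase Hdac2 was the only one that fell (-0.23, chosen after its value was seen), while 2 fell without WT replicate 2.

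Among 21 other tested genes known to be induced by glucocorticoids, 15 rose and 3 fell, with a median of 0.19. The rises numbered 11 with DESeq2 and with limma on log2 FPKM. They numbered 12 with no filter and without Trem2_KO replicate 2, Trem2_KO replicate 3 or WT replicate 1. Cdkn1a, the cell cycle inhibitor p21, rose by 0.93 (SE 0.075, edgeR adjusted p = 5.28e-15) and, like Dusp1, lies on chromosome 17 with Trem2 and Fkbp5. The transcriptional coregulator Cited2 rose by 0.54, Pik3r1, the regulatory subunit of PI3 kinase, by 0.47, and the MAP kinase phosphatase Dusp1 by 0.29 on the log2 scale. The 3 that fell, chosen after their values were seen, were Sesn1 (-0.33), Cebpd (-0.19) and Rgs2 (-0.13). Of 15 glucocorticoid-induced genes known from macrophages, 7 rose and 3 fell, with a median of 0.24. Tnfaip3, a brake on NF-kB, rose by 1.02 (SE 0.041, adjusted p = 3.67e-27), the scavenger receptor Stab1 by 0.56, the efferocytosis receptor Mertk by 0.24 and the tetraspan protein Ms4a4a by 1.61 on the log2 scale. Sinusoidal endothelial cells also carry Stab1, and 13 of 15 of their markers rose in the same libraries. Cd163 (-0.10), Vsig4 (-0.087) and Irak3 (-0.33) were the 3 that fell, all chosen after their values were seen. Cd163 and Vsig4 are also among the 14 Kupffer cell markers, of which 11 fell in the same libraries. Cd163 is the haemoglobin scavenger receptor that glucocorticoids induce in monocytes.

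Inflammatory genes that the receptor represses went both ways. Of 17 tested, 7 rose and 3 fell, with a median of 0.12. The collagenase Mmp13 rose by 3.07 (SE 0.12, edgeR adjusted p = 1.45e-28), the gelatinase Mmp9 by 1.36, and the neutrophil chemokines Cxcl1 and Cxcl2 by 1.35 and 1.09 on the log2 scale. The 3 that fell, chosen after their values were seen, were Ccl2 (-0.68), Cxcl10 (-0.44) and Icam1 (-0.12). Of 11 glucocorticoid-responsive genes of hepatocytes, 6 rose and 1 fell, with a median of 0.29, while 9 of 14 hepatocyte markers fell and 0 rose in the same libraries. Pck1, the gluconeogenic enzyme, rose by 0.42 (SE 0.064, adjusted p = 4.64e-07), Igfbp1, which binds insulin-like growth factors, by 0.81, and the urea cycle enzyme Ass1 by 0.36. Cps1, another urea cycle enzyme, fell by 0.36 on the log2 scale.

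Lists for the other regulators of the targets gave a mixed picture. Of 21 CREB target and immediate early genes, 15 rose and 3 fell, with a median of 0.35. Egr1 rose by 1.09 (SE 0.038, edgeR adjusted p = 2.38e-30), Fosb by 0.85, Atf3 by 0.79 and Nr4a1 by 0.57 on the log2 scale. The 3 that fell, chosen after their values were seen, were Jun (-0.11), Jund (-0.21) and Ier3 (-0.33). These genes also respond quickly to cell isolation, whose part in the values was not tested. Of 18 FOXO target and atrophy genes, 7 rose and 2 fell (median 0.055), among them Irs2, an insulin receptor substrate, at 0.70 (SE 0.075, adjusted p = 5.38e-11), the insulin receptor Insr at 0.31, Cited2 as above and Sesn1 at -0.33. The other one that fell was the superoxide dismutase Sod2 (-0.16, chosen after its value was seen). Of the 18, 4 rose with DESeq2, with no filter, with limma on log2 FPKM, and without Trem2_KO replicate 2 or WT replicate 2. The falls numbered 1 with limma on log2 FPKM and without WT replicate 1. The muscle ligase Trim63, the usual partner of Fbxo32, was at 0 in every library. Of 16 hypoxia-induced genes, 4 rose and 2 fell (median 0.032), and DESeq2 called 3. Vegfa, the endothelial growth factor, rose by 2.19 (SE 0.19, adjusted p = 1.03e-13), Pfkfb3, a regulator of glycolysis, by 0.18 and Pdk1, which holds back pyruvate oxidation, by 0.22, while the prolyl hydroxylase P4ha1 fell by 0.32 on the log2 scale. The glucose transporter Slc2a1 rose by 0.19, and Hif1a itself was the other gene that fell (-0.14, both chosen after their values were seen). Vegfa lies on chromosome 17 close to Trem2. Pdk1 was not called with DESeq2 (adjusted p = 0.0797), and its edgeR adjusted p was 0.112 without Trem2_KO replicate 1, 0.108 without Trem2_KO replicate 3, 0.0885 without WT replicate 2 and 0.167 without WT replicate 3. Of this list, 2 genes rose without Trem2_KO replicate 1, Trem2_KO replicate 3 or WT replicate 3, and 1 fell without Trem2_KO replicate 1, Trem2_KO replicate 2, WT replicate 1 or WT replicate 2. Pfkfb3 was not called without Trem2_KO replicate 2 (adjusted p = 0.0519).

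Circadian clock genes other than Per1 went both ways. Of 18 tested, 3 rose and 4 fell, with a median of -0.0050, beside 15.3% of all tested genes called higher and 15.1% called lower. The clock output factors Tef and Dbp fell by 0.27 and 0.45, the repressor Nr1d1 fell by 0.28, and the repressor Bhlhe40 rose by 0.20 on the log2 scale (edgeR adjusted p = 1.75e-06 for Tef to 0.00355 for Bhlhe40). The core activators Arntl and Clock rose by 0.32 and 0.18, and the repressor Nr1d2 fell by 0.14 on the log2 scale, all 3 chosen after their values were seen. Among the called genes, the core activators thus rose, the output factors fell and the repressors went both ways. Bhlhe40 was not called without WT replicate 2 (adjusted p = 0.073). Per2 stood at -0.099 (SE 0.099, adjusted p = 0.489) and Per3 at 0.0044 (SE 0.090, adjusted p = 0.978), both chosen after their values were seen, beside 0.89 for Per1. With limma on log2 FPKM the 4 falls were called and 0 rises, and without WT replicate 2 edgeR called 1 rise. The labels give no time of day, and its part in these values, in Per1 or in the other targets was not tested.

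Of 13 tested paralogues of the 10 genes, 3 rose and 2 fell, with a median of 0.026, beside the 30.4% of all tested genes called in either direction. Klf13, a close relative of Klf9, rose by 0.68 (SE 0.037, edgeR adjusted p = 1.61e-21) and Tsc22d1 by 0.61 (SE 0.076, adjusted p = 3.67e-09). Klf11 was the third that rose (0.27, chosen after its value was seen). Fkbp4 fell as given above, and Sgk3, a kinase close to Sgk1, fell by 0.14 (SE 0.039, adjusted p = 0.00338). Of 13 genes of glutamine metabolism and transport, the surroundings of Glul, 5 rose and 3 fell, with a median of 0.018. The 4 with the smallest p were the amino acid transporters Slc38a2, Slc38a1 and Slc7a6, which rose by 0.40, 0.23 and 0.60, and the transaminase Got1, which rose by 0.14 on the log2 scale (edgeR adjusted p from 5.01e-07 for Slc38a2 to 0.00269 for Got1). The glutamine transporter Slc1a5 also rose (0.43), and Got2, Glud1 and Gfpt1 fell (-0.19, -0.091 and -0.18), all 4 chosen after their values were seen. Without Trem2_KO replicate 2, and with limma on log2 FPKM, 1 fell.

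**Figure D5:**
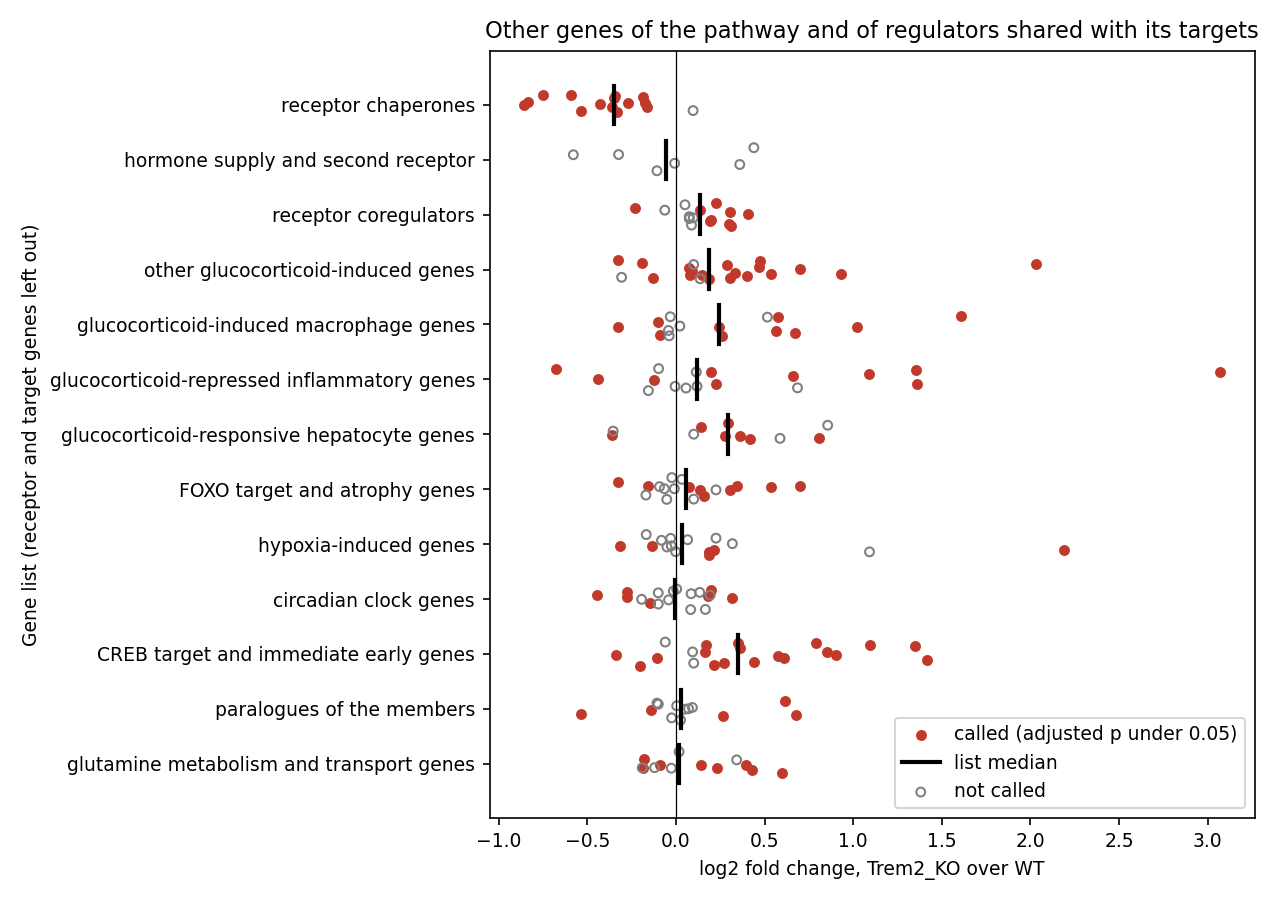
Log2 fold change of Trem2_KO over WT for every tested gene of the 13 lists. Filled circles passed an edgeR adjusted p under 0.05, open circles did not, and vertical bars are list medians. Chaperones lie left of 0 with a median of -0.35, and CREB target and immediate early genes lie mostly right with a median of 0.35.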

How the data were processed

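Kupffer cell RNA was read in 3 Trem2_KO and 3 WT libraries, grouped and numbered by sample title. The deposited values are raw read counts per gene and FPKM values by the authors, per the file headers and values. The FPKM equal the count over gene length and 1 constant per library, 0.989 to 1.02 times its total. HISAT2 2.0.5, DESeq2 1.16.1 and featureCounts 1.5.0-p3 are listed in the submitters' processing notes, with GRCm38 and mm10 as builds. Sources used here do not state strandedness or how multi-mapping reads were handled, so reads of overlapping genes cannot be told apart. Genes overlapping the 10 studied genes held at most 179 reads over all libraries.

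Tests of counts used edgeR 4.0.16 under R 4.3.3 (filterByExpr, TMM, quasi-likelihood test with robust dispersion, genotype as the only term) on 13776 of 54532 genes, which held at least 99.9% of each library's counts. The common biological coefficient of variation was 0.038. Standard errors were derived from each quasi-F statistic, and CPM are TMM-scaled. Where a library has 0 counts, a level of up to 3 counts (0.175 to 0.19 CPM) is possible from counting error alone. The test was checked on simulated counts.

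The genes, the 13 gene lists and the 9 marker lists were chosen with earlier results of these data known. Besides the 10 genes and Trem2, the text names up to 4 genes of each list by smallest p (2 where none was called) and up to 2 of each marker list. The value of 1 marker gene is not reported here. Any other gene named carries a remark that its choice followed its value, except genes at 0 in every library or too low to test. Promoters come from RefSeq (GRCm38.p6). Fbxo32 and Zbtb16 were not matched by symbol, and Nr3c1 was not used here. Alternatives were other scalings and filters, DESeq2 1.42.0, limma 3.58.1 on log2(FPKM + 1) or log2(FPKM + 0.1), a block for replicate number, and fits without each library in turn.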

Additional observations from a re-analysis of the deposited data

How the results depend on the processing

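The difference of the 9 targets kept its direction under all 14 alternatives run, except that the stricter filter left no value for Zbtb16. These genes were chosen on that difference and their libraries did not overlap, so leaving out a library could hardly reverse it. The median log2 change of the 10 genes, 1.04, was 0.90 with that filter, 0.69 on log2(FPKM + 1), and 1.01 to 1.06 without each library in turn. Zbtb16 stood at 0.28 on log2(FPKM + 1) and 1.13 on log2(FPKM + 0.1), since a pseudocount shrinks low genes. Calls over all genes numbered 4182, 3096 with DESeq2 and 3377 to 3909 without single libraries. With total counts as the scaling 61.3% of calls were higher in Trem2_KO, against 50.3%. The replicate numbers did not pair the libraries (correlation of same-numbered deviations -0.0079, 0.0031 and 0.036), and with the replicate block 4230 genes were called.

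Counts of calls in lists that moved by over 1.5 times were as follows. FOXO genes numbered 5 on both FPKM scales, against 9. Clock genes numbered 4 on both, against 7. Hypoxia genes numbered 3 with DESeq2, against 6, and 3 to 4 without single libraries (3 without Trem2_KO replicate 1). Monocyte markers, 5 of 9 called (4 higher), numbered 3 to 5 (3 without Trem2_KO replicate 2, WT replicate 1 or WT replicate 2), and stellate markers, 1 of 10, numbered 1 to 2 without single libraries (2 without Trem2_KO replicate 3, WT replicate 1 or WT replicate 2). T, NK and NKT markers numbered 0 with the stricter filter, against 1. Neutrophil markers, 2 of 5, numbered 1 with total counts, the stricter filter, DESeq2 and both FPKM scales, and 1 to 2 without single libraries (1 without Trem2_KO replicate 1 or 2 or WT replicate 3). Hormone supply genes numbered 0 to 1 (1 without WT replicate 3). The cause of these shifts was not tested. Counts of 7 to 38 reads limit Zbtb16.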
